A study of Mus musculus with 3 samples.

Results

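RNAP2 and Med12 were bound together at 1178 sites that overlapped protein-coding genes and lay away from every annotated transcript start in mouse distal forelimbs. These sites were RNAP2 peaks narrower than 4000 bp that shared at least 1 bp with a Med12 peak, stayed more than 1 kb away from any transcript start, and overlapped the span of a protein-coding gene, in the mm9 assembly with GENCODE vM1 genes. They made up 17.9% of the 6563 narrow RNAP2 peaks with that position and were drawn from 20479 RNAP2 peaks and 10634 Med12 peaks in all. The same overlap with Med12 was found for 21.7% of all RNAP2 peaks, for 36.7% of narrow peaks outside genes and away from starts, and for 17.2% of narrow peaks at starts.

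The study mapped candidate limb enhancers by chromatin immunoprecipitation followed by sequencing (ChIP-seq) in dissected distal forelimbs, the future wrist and hand, at E12.5. The design text of the series gives another stage, E11.5, while the sample labels and the methods give E12.5. There was 1 library with an antibody against RNAP2, 1 with an antibody against Med12, and 1 input library without an antibody, whose signal was not analysed here. Per the methods the limbs were wild type, no treatment was named, no library was replicated, and whether limbs of several embryos were pooled in a library is not given in the sources used here. RNAP2 peaks lay at a start of all 7 genes taken to mark distal limb mesenchyme (Hoxa13, Hoxd13, Msx1, Prrx1, Sall1, Tbx5 and Twist1), at 2 of 7 muscle markers (Pax3 and Pax7), at 1 of 7 endothelial and blood markers (Kdr) and at 0 of 7 ectodermal markers. In longer lists of the same cell types RNAP2 was at a start of 5 of 16 muscle genes, 6 of 16 endothelial and blood genes and 1 of 14 ectodermal genes, beside 42.2% of all protein-coding genes and 60 of 69 limb transcription factor genes.

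RNAP2 is the enzyme that transcribes protein-coding genes, and Mediator, the complex that holds Med12, joins RNAP2 and its general factors to transcription factors bound at enhancers. Enhancers are often found in introns, and they can act on a gene other than the one that holds them, sometimes at a great distance. RNAP2 inside a gene can also be polymerase that is transcribing the gene, so that a peak inside a gene does not by itself tell an enhancer from transcription of its host.

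The sequences of 7 sites are shown as examples from hosts described in what follows, and they are not a representative sample of the sites. Each is the plus strand of mm9, 300 bp around the centre of the overlap between the RNAP2 and the Med12 peak, and a site is named by its host gene and its order along the chromosome. Capitals mark TAATTA (a homeodomain core), CAATAAA (a core bound by posterior HOX proteins), CAGCTG and CATCTG (E-boxes, bound by basic helix-loop-helix proteins such as TWIST1), found on either strand. Jazf1_5 lies in an intron of Jazf1 at chr6:52917856-52918155 and overlaps a region taken for transgenesis in the study. Dnm3_5 lies at chr1:163967066-163967365, in the gene with the most sites, and its window holds none of these motifs. Hdac9_1, at chr12:34885176-34885475, 1700112E06Rik_7, at chr14:23261274-23261573, and Wwox_3, at chr8:117781411-117781710, lie in hosts without RNAP2 at any own start. Ror2_3 lies in the first intron of the Wnt receptor gene Ror2 at chr13:53348671-53348970. Auts2_6, at chr5:132327224-132327523, had the highest RNAP2 score among the intronic sites whose window holds 3 of the 4 motifs, as 2.63% of all sites do. Erc2_2 and Auts2_8 had the highest RNAP2 scores among the intronic sites of Erc2 and Auts2. Their windows hold none of the 4 motifs and are not printed. At least 1 of the 4 was in 62.6% of all sites and in 42.5% of windows 3 kb to each side.
Jazf1_5: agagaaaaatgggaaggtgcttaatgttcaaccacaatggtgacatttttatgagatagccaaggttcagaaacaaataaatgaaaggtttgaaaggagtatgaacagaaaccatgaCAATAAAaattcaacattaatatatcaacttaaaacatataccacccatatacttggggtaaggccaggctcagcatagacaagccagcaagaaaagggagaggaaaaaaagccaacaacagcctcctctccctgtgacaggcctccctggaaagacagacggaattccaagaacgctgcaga
Dnm3_5: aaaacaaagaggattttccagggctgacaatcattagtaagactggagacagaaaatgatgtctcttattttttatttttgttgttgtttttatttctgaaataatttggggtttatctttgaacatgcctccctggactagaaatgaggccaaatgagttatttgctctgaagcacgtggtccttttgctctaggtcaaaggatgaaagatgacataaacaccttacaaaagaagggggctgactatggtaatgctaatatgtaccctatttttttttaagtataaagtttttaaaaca
Hdac9_1: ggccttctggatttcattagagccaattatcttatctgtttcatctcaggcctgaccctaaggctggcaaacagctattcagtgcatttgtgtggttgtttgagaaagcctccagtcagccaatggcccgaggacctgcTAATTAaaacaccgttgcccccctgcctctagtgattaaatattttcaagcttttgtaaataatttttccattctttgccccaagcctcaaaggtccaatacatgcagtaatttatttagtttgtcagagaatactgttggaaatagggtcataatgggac
1700112E06Rik_7: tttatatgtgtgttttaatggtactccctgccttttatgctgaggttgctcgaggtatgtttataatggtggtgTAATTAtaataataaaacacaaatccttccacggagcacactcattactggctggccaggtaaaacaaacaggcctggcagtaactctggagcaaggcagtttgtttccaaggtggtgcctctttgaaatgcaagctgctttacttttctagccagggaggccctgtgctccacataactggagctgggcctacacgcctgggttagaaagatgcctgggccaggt
Wwox_3: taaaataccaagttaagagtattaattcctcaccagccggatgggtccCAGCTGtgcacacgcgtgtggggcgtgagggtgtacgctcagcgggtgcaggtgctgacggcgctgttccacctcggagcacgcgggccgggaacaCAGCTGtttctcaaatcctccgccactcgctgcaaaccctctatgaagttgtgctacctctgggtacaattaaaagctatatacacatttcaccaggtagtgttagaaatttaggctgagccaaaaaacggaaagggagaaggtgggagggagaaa
Ror2_3: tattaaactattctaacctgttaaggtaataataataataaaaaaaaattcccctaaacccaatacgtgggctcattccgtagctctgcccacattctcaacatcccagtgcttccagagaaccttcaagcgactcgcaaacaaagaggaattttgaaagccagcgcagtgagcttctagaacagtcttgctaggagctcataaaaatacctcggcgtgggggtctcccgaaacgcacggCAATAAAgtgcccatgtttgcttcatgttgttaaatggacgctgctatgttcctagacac
Auts2_6: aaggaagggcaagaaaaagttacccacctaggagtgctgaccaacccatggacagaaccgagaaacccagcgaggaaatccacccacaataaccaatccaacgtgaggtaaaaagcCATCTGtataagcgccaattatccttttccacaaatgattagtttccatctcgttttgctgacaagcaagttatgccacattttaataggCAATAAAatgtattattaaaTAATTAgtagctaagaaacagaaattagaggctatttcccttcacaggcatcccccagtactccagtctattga

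The value of a peak is the score written by the peak caller, MACS, equal to 10 times -log10 of its p-value, so that it ranks peaks within a list and does not compare binding between antibodies. RNAP2 scores of the sites ranged from 40.03 to 3100 with a median of 137, and Med12 scores from 40.04 to 1326 with a median of 84.5. These medians were above those of intragenic distal RNAP2 peaks without Med12 (65.1) and of all Med12 peaks (56.8), values that the choice of sites used. Over the 1178 sites the Spearman correlation of the scores was 0.449, a description across sites that share a pair of libraries and in part their peak widths. Their width ran from 691 to 3977 bp (median 1371.5 bp), and the median distance between the centres of the RNAP2 and Med12 peaks was 137 bp. Because 26 sites shared their Med12 peak with another site, the sites rested on 1165 Med12 peaks.

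**Figure D1:**
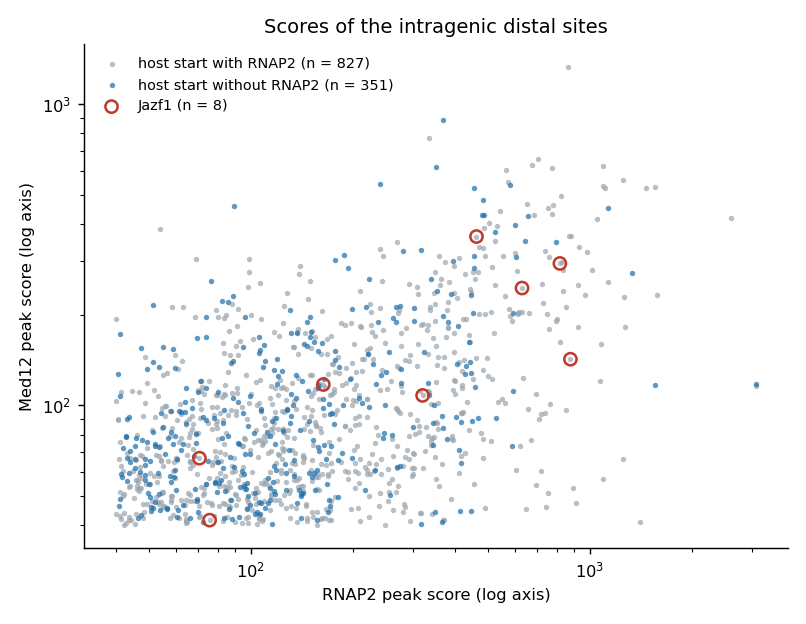
RNAP2 peak score (x axis) against Med12 peak score (y axis), both on log axes, for the 1178 sites, 1 point each. Sites in hosts without RNAP2 at an own start (blue, n = 351) run from 40.5 to 3100 in RNAP2 score, with a median of 117 (106 to 131). The others (grey, n = 827) run from 40.03 to 3100, with a median of 150 (137 to 161). The 8 sites of Jazf1 (red rings) run from 70.5 to 876 in RNAP2 score.

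The highest RNAP2 scores belonged to Plekhm3_1 and C87436_1, both listed at 3100, a value that several peaks of the list share. Their Med12 scores were 118 and 116. H13_1 followed with an RNAP2 score of 2604 and a Med12 score of 418. The other sites among the 10 highest were 9030425E11Rik_1, Calcoco2_1, Eif3h_1, Runx1t1_3, Mecom_10, Btd_1 and Csrp1_1, with RNAP2 scores of 1271 to 1576. Of these 10 sites, Plekhm3_1, Calcoco2_1 and Btd_1 lay in genes without RNAP2 at an own start, and Calcoco2_1, Eif3h_1 and Btd_1 overlapped coding exons. Among the 10 sites with the highest RNAP2 scores, the lowest Med12 score was 41.1, at Mecom_10.

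The highest Med12 score was that of Dpp9_1, 1326, the fourth of all Med12 peaks, in an intron of the gene of a dipeptidyl peptidase. Its RNAP2 score was 863. Ano2_1 (Med12 score 887) and Bank1_1 (617) lay in genes without RNAP2 at an own start, and the nearest RNAP2-bound coding starts were those of Cd9 and Ppp3ca, 381.6 kb and 371.6 kb away. Hs6st3_1 (769), Frmd4a_2 (657), Fto_1 (626), Smg6_2 (621), Dysf_3 (615), Glrb_1 (603) and Chd9_1 (560) completed the 10 highest. All 10 lay in introns, and none of them was among the 10 highest by RNAP2.

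The sites lay mostly in introns. Of the 1178, 1005 overlapped introns alone (85.3%, 95% Wilson interval 83.2 to 87.2%), 123 touched a coding exon (10.4%) and 50 touched only a noncoding exon (4.24%). Among the 5385 intragenic distal RNAP2 peaks without Med12, 70.6% overlapped introns alone and 22.9% touched a coding exon. The share in introns was therefore 14.7 percentage points higher with Med12 (95% Newcombe interval 12.3 to 17.0), an interval that covers counting error alone, since sites are not replicates. Exons made up on average 4.45% of the host sequence away from starts for sites with Med12 and 6.997% for peaks without it. Within RNAP2 scores of 40 to 100, 100 to 300, and 300 or more, bands chosen after the data were seen, the share in introns was 87.9%, 83.4% and 84.7% with Med12 and 73.4%, 64.4% and 48.4% without it.

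The first intron held the centre of 257 sites (21.8%), against 16.5% of peaks without Med12, a difference of 5.27 points (2.79 to 7.90). The first intron made up 24.0% of the host sequence away from starts for the sites and 24.3% for the other peaks, so the share of sites there was close to the share of sequence. Peaks near the 3′ end, where transcribing polymerase often accumulates, were fewer with Med12: 54 sites (4.58%) lay within 1 kb of the 3′ end of the host transcript, compared with 7.84% without Med12 (difference -3.25 points, -4.54 to -1.74).

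**Figure D2:**
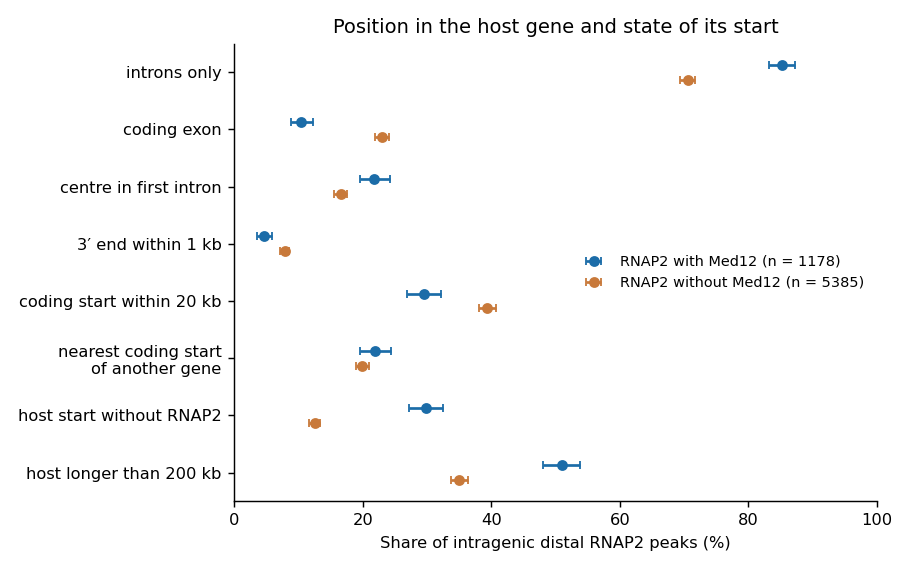
Share of intragenic distal RNAP2 peaks (x axis, percent) with each property (y axis), for peaks with Med12 (blue, n = 1178) and without Med12 (orange, n = 5385), with 95% Wilson intervals as bars. Peaks with Med12 were more often in introns alone (85.3% against 70.6%) and more often in a host without RNAP2 at an own start (29.8% against 12.498%).

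The sites were far from starts. The gap from the edge of the RNAP2 peak to the nearest annotated start of any kind ranged from 1009 to 415009 bp with a median of 24370.5 bp. To the nearest start of a protein-coding transcript the median gap was 43729.5 bp (95% interval 39663 to 47578), and it was 28967 bp for peaks without Med12 (27748 to 30519). More than 50 kb separated 534 sites (45.3%) from any coding start, against 33.8% of peaks without Med12. Within 5 kb of a coding start lay 114 sites (9.68%), against 12.2%. The hosts of the sites were also longer, with 50.9% of sites and 35.0% of peaks without Med12 in hosts over 200 kb, and the part of host length in the difference in distance was not tested. The nearest coding start belonged to a gene other than the host for 258 sites (21.9%), and for 19.9% of peaks without Med12, a difference of 1.98 points whose interval (-0.54 to 4.64) included 0.

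At the limits of the rule, the widest site was Tcf4_2 with 3977 bp, and the narrowest peak left out for its width lay in Glyr1 with 4065 bp. The site nearest to a start was Lnp_1 with a gap of 1009 bp, and a peak in Prrx1 with a gap of 996 bp was left out. The smallest overlap with Med12 was 2 bp at Ptch1_1, and a peak in Slit2 lay 17 bp from a Med12 peak and was left out. There were 21 intragenic distal peaks with Med12 of 4000 bp or more. Because the rule asked only for an overlap with the gene span, 40 sites (3.40%) reached past an end of their host.

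The sites lay in 778 host genes, 3.48% of the 22380 protein-coding genes, while 9.87% of genes held an intragenic distal RNAP2 peak without Med12. The median length of a host was 150063 bp and that of all protein-coding genes 15420.5 bp, and the share of genes that were hosts was 0.753% up to 50 kb and 41% over 500 kb. A single site was found in 577 hosts, 105 hosts had 2 sites, 64 had 3 or 4 and 32 had 5 or more. Another site lay within 10 kb of 192 sites, and the median gap to the nearest other site was 132122 bp. There were 24 sites in more than 1 host, and 7 lay only in Gm20388, a span of 4434.88 kb that runs across many other genes.

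Many sites lay in genes whose own start had no RNAP2. A start of the host carried an RNAP2 peak within 1 kb for 827 sites and did not for 351 (29.8%), compared with 12.498% of the peaks without Med12, a difference of 17.3 points (14.6 to 20.1). Counted by gene, 514 of 778 hosts had RNAP2 at an own start (66.1%), as did 42.2% of all protein-coding genes. Among the 1772 genes that held only RNAP2 peaks without Med12 the share was 77.2%, so the hosts of the sites were 11.1 points lower (-15.02 to -7.32 in the direction hosts of sites minus other hosts). It was 38.1% in genes with neither kind of peak. Of the 264 hosts without RNAP2 at a start, 160 had no other RNAP2 peak in the gene besides their sites.

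These shares were also compared by gene length and by RNAP2 score, without a test between the classes. Among hosts of up to 50 kb, 50 to 100 kb and 100 to 200 kb, RNAP2 was at the start of 68.9%, 71.2% and 65.7% of hosts of the sites and of 80.3%, 83.7% and 76.3% of the genes with peaks without Med12 only. Between 200 and 500 kb the shares were 65.4% and 62.3%, and over 500 kb 54.9% and 40.9%, and the intervals of these differences (-5.93 to 12.2 and -4.23 to 30.7 points) included 0. Counted by site rather than by gene, the difference was present in both classes: hosts without RNAP2 at a start held 29.8% of sites and 10.5% of peaks without Med12 in genes up to 200 kb, and 29.8% and 16.2% in longer genes (13.7 points, 9.75 to 17.8). By RNAP2 score, the share of peaks whose host had no RNAP2 at a start was 35.1% with Med12 and 12.7% without it at scores of 40 to 100, and 29.5% and 11.5% at scores of 100 to 300. At scores of 300 or more it was 22.4% of 281 sites and 16.3% of 153 peaks without Med12, a difference of 6.08 points with an interval that included 0 (-1.96 to 13.3).

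**Figure D3:**
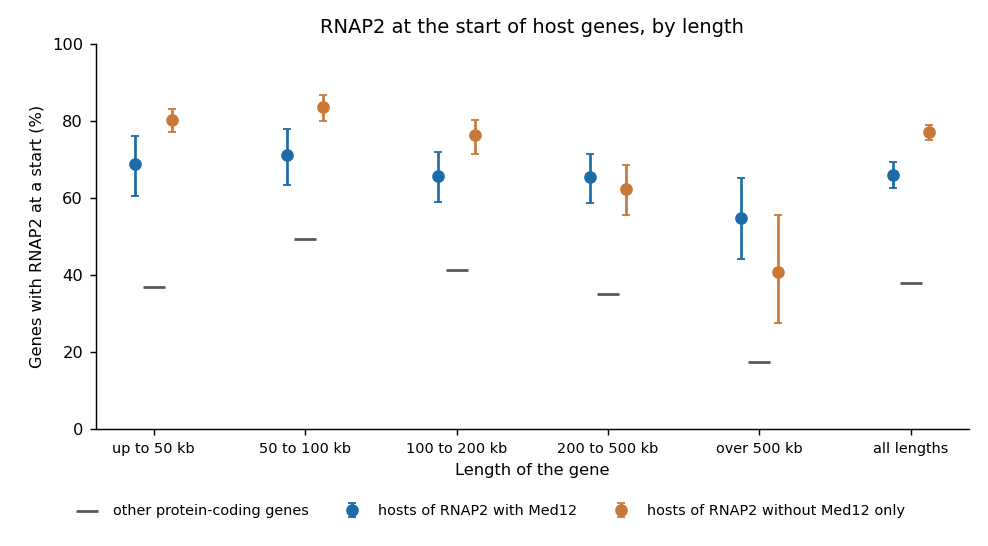
Percent of genes with an RNAP2 peak within 1 kb of an own start (y axis) by gene length (x axis), for hosts of the sites (blue), for genes that held only intragenic distal RNAP2 peaks without Med12 (orange) and for other protein-coding genes (grey dashes), with 95% Wilson intervals as bars. Up to 200 kb the hosts of the sites lie below the orange points (68.9% against 80.3% up to 50 kb), and over 200 kb they do not.

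In the hosts without RNAP2 at a start, the nearest coding start that carried RNAP2 was far away, with a median gap of 202.6 kb over the 351 sites (170.7 to 223.0 kb) and 62.2 kb over the 827 others, a difference that follows in part from the absence of the host's own start. Of the 351, 42 touched a coding exon (11.97%), and of the 827, 81 did (9.79%). The hosts with 3 or more such sites numbered 19. They are named here after their values were seen, with the nearest RNAP2-bound coding start as a position and not as a target. Starts of noncoding transcripts were not considered for these distances.

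In 1700112E06Rik, a predicted gene of 1036.37 kb, all 9 sites lay in introns between 95.6 and 996 kb from the start. The nearest RNAP2-bound coding start was that of Zfp503, a zinc-finger gene, for each of them (125 to 1026 kb). RNAP2 scores there ran from 55.7 to 402 and Med12 scores from 47.4 to 211. Erc2, a gene of the presynaptic active zone, held 6 intronic sites. For 4 of them the nearest RNAP2-bound coding start was that of Wnt5a, a Wnt ligand needed for limb outgrowth. Erc2_6, with an RNAP2 score of 349 and a Med12 score of 44.2, lay 36.0 kb from it, and Erc2_5, with scores of 162 and 161, lay 153 kb from it. Kcnma1, a potassium channel gene beside 1700112E06Rik, held 4 intronic sites, with Dlg5 as the nearest RNAP2-bound coding start at 531.5 to 853.9 kb.

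Hdac9, which encodes a histone deacetylase, held 5 sites, of which 3 touched coding exons (Hdac9_2, Hdac9_3 and Hdac9_4). The nearest RNAP2-bound coding start of all 5 was that of Twist1, a basic helix-loop-helix gene of limb mesenchyme, at 241.7 to 467.1 kb. As background, exons of Hdac9 are known to include enhancers of Twist1. Whether the exons touched by these sites are among those enhancers was not examined, and the centre of Hdac9_4 lay in intron 7. The RNAP2 scores of the 3 sites that touched coding exons were 51.4, 348 and 134, and their Med12 scores were 215, 100 and 65.9. Dync1i1, a dynein subunit gene whose exons are known to include limb enhancers of Dlx5 and Dlx6, held 3 sites, and 2 touched coding exons. The nearest RNAP2-bound coding start was that of Shfm1 for 2 of the 3 sites and that of Asb4 for 1, at 417.1 to 571.5 kb. Dync1i1_3, at the 3′ end of the gene, had an RNAP2 score of 381 and a Med12 score of 189, and Dync1i1_2 had 132 and 92.2. Only 2 of these 19 hosts, Dync1i1 and Casz1, held no intragenic distal RNAP2 peak without Med12.

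Among the other hosts of this kind, Smyd3, a methyltransferase gene, held 4 sites 262.9 to 348.2 kb from the start of Kif26b, a kinesin-related gene that itself held 7 sites. Syn3 held 4 sites 4.13 to 122.4 kb from the start of Timp3, a metalloproteinase inhibitor gene that lies within an intron of Syn3. Slc25a21 held 3 sites, for 2 of which the nearest RNAP2-bound coding start was that of Pax9, a paired-box gene of limb and skeleton. Wwox held 3 sites with that of Maf, a leucine-zipper gene, at 448.8 to 974.9 kb. Pgcp held 3 sites with that of Sdc2, a heparan sulfate proteoglycan gene, at 262.6 to 441.7 kb, and Atp8a2 held 5 with that of Shisa2 at 141.3 to 305.7 kb. Kifap3, a kinesin-associated gene, held 5 intronic sites with RNAP2 scores of 98.0 to 245 and Med12 scores of 50.1 to 78.0, with the start of Scyl3 nearest at 30.1 to 82.7 kb. The predicted gene 2010111I01Rik held 6 sites, with the start of Fancc nearest at 259.3 to 436.7 kb. The others held 3 sites each. Their nearest RNAP2-bound coding starts were those of Dicer1 (Clmn), Mex3b (Eftud1), Pgd or Tardbp (Casz1), Kank4 (Inadl), Cdc37l1 or Rfx3 (Glis3) and Egln3 (Npas3). Both 2010111I01Rik and Casz1 had a Med12 peak at an own start.

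**Figure D4:**
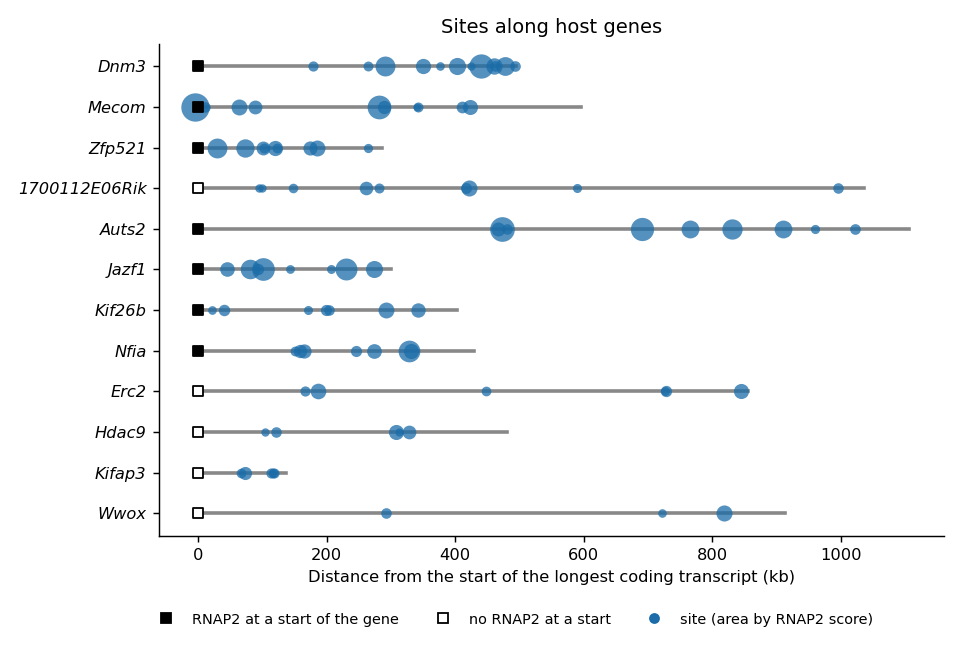
Sites along 12 host genes, as distance in kb from the start of the longest coding transcript (x axis), with 1 row for each gene, a grey line as long as the gene drawn from that start, and 1 circle for each site whose area grows with its RNAP2 score. Black squares mark genes with RNAP2 within 1 kb of an own start, which for Jazf1 is that of a noncoding transcript, and white squares mark genes without it (1700112E06Rik, Erc2, Hdac9, Kifap3 and Wwox). All squares are drawn at the start of the line, whichever own start carries RNAP2. Mecom_10 lies before the start drawn, at -4.782 kb.

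The gene with the most sites was Dnm3, a dynamin gene of 495.6 kb, with 12 sites over 316.6 kb in its 3′ part. Of these, 11 lay in introns alone. Their RNAP2 scores ran from 53.1 (Dnm3_6) to 1012 (Dnm3_5) and their Med12 scores from 48.0 to 281 at the same sites. Although Dnm3 had RNAP2 at a coding start, the nearest RNAP2-bound coding start of 9 sites was that of Pigc. An RNAP2-bound coding start of Dnm3 lay inside the gene, 3.42 kb from Dnm3_12, a site 178.3 kb from the start of the longest coding transcript. Pigc is a gene of glycosylphosphatidylinositol anchor synthesis that overlaps the end of Dnm3. Pigc shared 4 of the sites and was, with 6.91 sites per 100 kb, the densest host among those with 3 or more sites.

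Mecom, which encodes a zinc-finger transcription factor, held 10 sites, all in introns, with RNAP2 scores of 43.1 to 1408 and Med12 scores of 41.1 to 232. The site with the highest RNAP2 score, Mecom_10, had the lowest Med12 score of the gene and lay 2.96 kb from a coding start, and Mecom_6 had the highest Med12 score with an RNAP2 score of 966. Mecom also held 37 RNAP2 peaks without Med12. Zfp521, another zinc-finger gene, held 9 sites with RNAP2 scores of 84.9 to 653 and Med12 scores of 42.0 to 466, both highest at Zfp521_9, 28.3 kb from the start. Auts2, a regulator of transcription expressed in the developing nervous system, held 9 sites. The RNAP2 scores of its 9 sites were highest at Auts2_8 (1050, with a Med12 score of 415), Auts2_6 (920, with 251) and Auts2_4 (686, with 429), which lay 234 to 451 kb or, for Auts2_4, 93.5 kb from the nearest coding start.

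Kif26b, the nuclear factor I gene Nfia and the adhesion receptor gene Lphn3 held 7 sites each, and Arid5b and the homeodomain gene Pknox2 held 6 each. All of these had RNAP2 at a coding start. Gm20388 held 9. Among hosts with 3 or more sites, the densest after Pigc were Vcan, which encodes the matrix proteoglycan versican, with 5 sites (5.73 per 100 kb), Runx3, a runt-domain transcription factor gene of cartilage, with 3 sites (5.23), the planar polarity gene Prickle1 with 4 (4.13) and the Hedgehog co-receptor gene Boc with 3 (4.06). The 5 sites of Vcan scored 325, 203, 424, 173 and 70.9 for RNAP2 along the chromosome, and 70.5, 90.5, 142, 64.2 and 102 for Med12. Runx3 held no RNAP2 peak without Med12 away from starts. Its 3 sites had RNAP2 scores of 406, 89.1 and 485, with 227, 66.8 and 131 for Med12.

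Jazf1, a zinc-finger gene upstream of Hoxa13, held 8 sites, all in introns, from 44.9 to 273.4 kb from its start. Their RNAP2 scores in order along the chromosome were 463, 816, 75.6, 70.5, 876, 164, 631 and 321, and their Med12 scores were 363, 296, 41.6, 66.8, 142, 117, 245 and 108. The coding starts of Jazf1 had no RNAP2 peak. The RNAP2 peak at an own start lay at the start of a noncoding transcript of the gene, and the nearest RNAP2-bound coding start was that of Tax1bp1 for 7 of the 8 sites. Of the 12 regions taken for transgenesis in the study for which coordinates were given, 7 held a site. These were e10, e12, e15, e16, e18 and e19 in Jazf1, and e5 in Hibadh, whose site Hibadh_1 had an RNAP2 score of 93.9 and a Med12 score of 73.2. Jazf1_3 and Jazf1_6 lay in none of them. The study chose its candidate regions in part by RNAP2 and Med12 peaks of these same libraries, so this overlap is no independent evidence.

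The hosts were also counted by role in 13 lists of genes, beside the 3.48% of all protein-coding genes that were hosts. The lists were chosen with earlier results of these data known, so their shares are a description and no independent evidence. The listed genes were longer than the median gene in all lists but that of muscle. Of 69 limb transcription factor genes, 29 were hosts (42.0%) with 68 sites, and 28 of the 29 had RNAP2 at a start, the exception being Zbtb16. The median length of these 69 genes was 58411 bp. Intragenic distal RNAP2 peaks without Med12 lay in 49 of the 69, against 9.87% of all protein-coding genes. The E-protein gene Tcf4 held 6 sites with RNAP2 scores up to 1128, the repressor gene Runx1t1 held 4 with scores up to 1463, and Nfib held 4. Gli3, the main transcription factor of Hedgehog signalling in digit patterning, held 2 sites which scored 338 and 852 for RNAP2 and 207 and 96.6 for Med12, among 51 RNAP2 peaks without Med12. The single site of Lhx9, a LIM homeodomain gene of distal mesenchyme, touched a coding exon 3.10 kb from the start, with scores of 1255 for RNAP2 and 66.3 for Med12.

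Of 26 cartilage and bone genes, 8 were hosts (30.8%) with 29 sites, among them Sox5, Sox6, Trps1 and Fbn2. In the Hedgehog list, 4 of 14 genes were hosts: the receptor gene Ptch1, the co-receptor genes Boc and Cdon, and Gli3. In the Wnt list, 11 of 46 were hosts, including the ligand gene Wnt11, the receptor genes Fzd4, Ror1 and Ror2, the inhibitor genes Axin2 and Nkd1, and the nuclear effector genes Lef1, Tcf7l1 and Tcf7l2. The 5 sites of Ror2 all lay in the first intron, with RNAP2 scores of 170 to 364 and Med12 scores of 41.7 to 262, both highest at Ror2_3. In the BMP and TGF-β list 7 of 38 genes were hosts, including the ligand genes Bmp5, Bmp7 and Gdf6, the receptor genes Bmpr1b and Tgfbr3, and the inhibitory Smad genes Smad6 and Smad7, whose sites had RNAP2 scores of 397 and 561. In the FGF list 4 of 18 were hosts: the receptor genes Fgfr1 and Fgfr2 and the feedback inhibitor genes Dusp6 and Il17rd. The RNAP2 peak of the Dusp6 site crossed the 3′ end of the gene, and its Med12 peak lay beyond that end. The annotated span of Fgfr2 is 3009.07 kb long and reaches over other genes. The Notch list had 3 hosts of 22 and axon guidance and adhesion 11 of 30, among them the ephrin receptor genes Epha3 and Epha4 and the Robo receptor genes. In each of these lists more genes held an intragenic distal RNAP2 peak without Med12 than were hosts. These were 10 of 26 (cartilage and bone), 6 of 14 (Hedgehog), 19 of 46 (Wnt) and 25 of 38 (BMP and TGF-β). In the others they were 10 of 18 (FGF), 7 of 22 (Notch) and 21 of 30 (axon guidance and adhesion).

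Lists of other cell types were counted in the same way. Of 16 muscle genes, 2 were hosts (Met and Mef2c), of 14 ectodermal genes 1 (Grhl3), and of 16 endothelial and blood genes 2 (Erg and Ets1). Met, Mef2c and Grhl3 had no RNAP2 at a start. The intervals of these shares were wide (3.50 to 36.0%, 1.27 to 31.5% and 3.50 to 36.0%), and they were tested neither against those of the other lists nor against all genes. Intragenic distal RNAP2 peaks without Med12 lay in 3 muscle, 1 ectodermal and 6 endothelial and blood genes of these lists. The lists of HoxA and HoxD landscape genes (3 hosts of 12) and of genes known to hold long-range limb enhancers (5 of 8) were moreover chosen in part from the study. Like the other lists, they are no independent evidence. In all, 82 of the 313 listed genes were hosts, with 180 sites.

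In sequence the sites were unlike promoters. In windows of 300 bp the median GC content was 42.7% and the median ratio of observed to expected CpG 0.245, and 25 sites (2.12%) were CpG-rich, defined as at least 50% GC with a ratio of at least 0.6. Of the RNAP2 peaks with Med12 at starts, 69.8% were CpG-rich. Windows 3 kb to each side of the sites had a median GC content of 43.7% and a ratio of 0.185, and 0.976% of them were CpG-rich.

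Of the 22 motifs searched, several short cores bound by limb transcription factors were more frequent at the centres of the sites than 3 kb away. A window held TAATTA in 16.9% of sites, in 9.85% of windows 3 kb away and in 12.01% of peaks without Med12. For CAATAAA the shares were 14.5%, 7.43% and 9.42%, for CAGCTG 20.6%, 12.2% and 15.6%, and for CATCTG 29.3%, 21.3% and 23.3%. The differences from the windows 3 kb away were 7.05 points (4.65 to 9.56), 7.09 (4.88 to 9.43), 8.45 (5.84 to 11.2) and 8.02 (4.98 to 11.1), respectively. With windows centred on the RNAP2 peak these differences were 5.48, 7.51, 7.17 and 4.07 points (1.10 to 7.13 for the second E-box). GGAATG, the core of TEAD sites, was found in 21.2%, 15.5% and 16.3%, and TATAAAA, bound by the TBP protein at some core promoters and also common in AT-rich DNA, in 17.1%, 9.55% and 11.6%. Also above windows 3 kb away were the NFY core CCAAT (3.48 points, 0.11 to 6.89) and the RUNX core TGTGGTT (2.21, 0.31 to 4.26). The CRE core TGACGTCA (0.55, 0.19 to 1.18) and TCGTAAA, a second posterior HOX core (1.19, 0.51 to 2.10), were too. The rise was thus not limited to cores of limb factors. The intervals count the windows on each side of a site as separate. The windows of peaks without Med12 were centred on the RNAP2 peak, and those of the sites on the overlap of both peaks, so the comparison between them differs in centring as well as in Med12.

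Not all motifs followed this pattern. TGACAG, a MEIS core, was found in 17.4% of sites and 19.2% of windows 3 kb away (difference -1.83 points, -4.46 to 0.92), and ACAATGG, a SOX core, in 2.97% and 4.92% (difference -1.95 points, -3.21 to -0.56). For CATATG, another E-box searched, the difference was 1.15 points (-0.83 to 3.26). The intervals for the PBX-HOX (0.68 points), TCF/LEF (1.23), GLI (-0.085) and AP-1 (-1.44) cores also included 0. The core of the CTCF motif was rare everywhere. It was found in 0 of 1178 windows of the sites (upper limit of the interval 0.325%) and in 0.212% of windows 3 kb away. The interval of this difference (-0.50 to 0.13 points) included 0. Among peaks without Med12 the share was 0.111%. The sites were also compared with the 1461 RNAP2 peaks with Med12 outside genes. The intervals of the differences included 0 for the homeodomain, HOX, MEIS, SOX and TEAD cores, the CAGCTG and CATCTG E-boxes and TATAAAA. Examples were 16.9% and 14.99% for TAATTA, and 14.5% and 17.2% for CAATAAA (difference -2.66 points, -5.43 to 0.15).

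**Figure D5:**
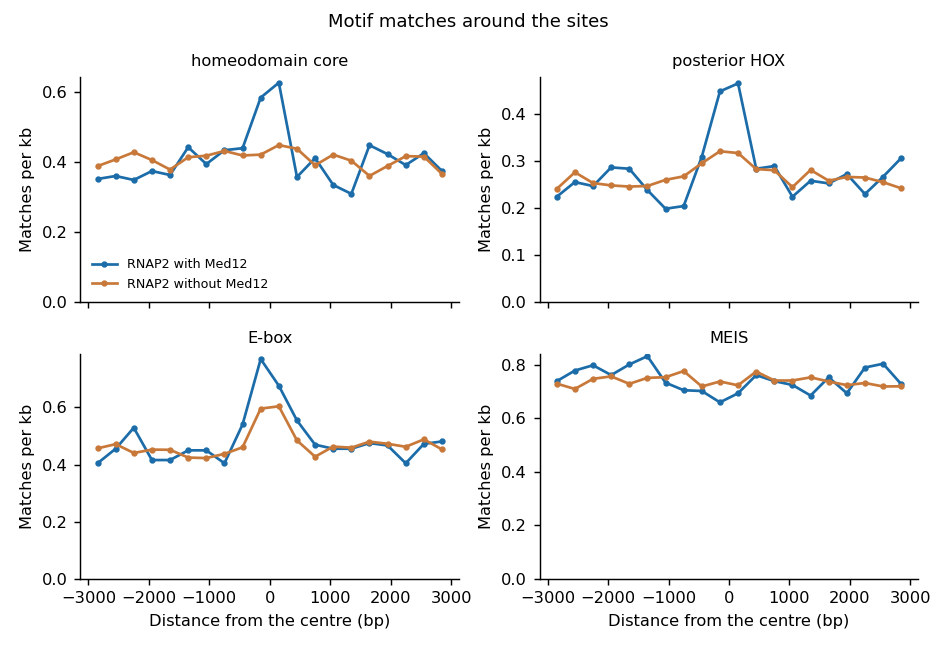
Matches per kb (y axis) to the homeodomain core, the posterior HOX core, the CAGCTG E-box and the MEIS core in bins of 300 bp by distance from the centre (x axis, bp), for intragenic distal RNAP2 peaks with Med12 (blue, centre of the overlap) and without it (orange, centre of the RNAP2 peak). The first 3 panels peak at the centre in blue, where 16.9% of windows held the homeodomain core against 9.85% of those 3 kb away, and the MEIS panel does not.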

How the data were processed

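RNAP2 and Med12 ChIP-seq peaks of E12.5 distal forelimbs were analysed, 1 library for each antibody. Per the methods of the authors, trimmed reads were aligned to mm9 (Bowtie), duplicates were discarded, and MACS 1.4.1 called the peaks of each library (bandwidth 250, mfold 7 to 30, p-value 1e-05), and the settings do not name the input as control. The deposited score of each peak equals 10 times -log10 of its p-value and depends on depth and width. Depth is unknown from the lists, which hold no counts, so single peaks have no error. The lowest score is 40, which is a p-value of 0.0001 and weaker than the cut-off of 1e-05 named in the methods. That cut-off is a score of 50, and with at least 50 for both peaks 935 sites in 639 hosts remained.

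Peaks were intersected with GENCODE vM1 genes in Python 3.11.15 with numpy 2.4.6, and sequences were read from the NCBIM37 (mm9) assembly with pysam 0.24.0. Positions are 1-based. The overlap code was tested on simulated peaks. Gaps were measured from the peak edge, and intron numbers come from the longest coding transcript of the host. A peak was intronic when it touched no exon of any host transcript. Shares have 95% Wilson intervals, differences 95% Newcombe intervals (scipy 1.17.1) and medians order-statistic intervals, with no p-value. Motifs (22 searched) were matched exactly on both strands. The reference sequence was not soft-masked, so the share of repeats was not computed. RefSeq starts (32851 promoter sequences, GRCm38.p6) were placed on mm9 by exact match.

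The sites and gene lists were chosen with earlier results of these data known. Named sites are the 10 highest by each antibody and those in regions taken for transgenesis. Named hosts are the 12 with the most sites, the 5 densest among hosts of 3 or more sites, and those in the lists. The 19 hosts of 3 or more sites without RNAP2 at an own start are not covered by this rule, having been picked with their values known. The columns of all peak lists were assigned, with 0 unused. The input library, p300, H3K27Ac, 5C and transgenic data were not analysed here.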

Additional observations from a re-analysis of the deposited data

How the results depend on the processing

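The 17 results were recomputed under 18 other settings, 5 of them chosen after the data were seen, and 102 of 115 values stayed within the interval of the value reported, within 1.5 times it for counts or, for differences, on the same side of 0 with an interval of the same kind. With a score of at least 100 for both peaks, the sites fell from 1178 to 383 and the hosts from 778 to 299, 69.9% of hosts had RNAP2 at an own start, and for 25.8% of sites the nearest coding start was that of another gene. The share of sites in introns alone, 85.3%, was 82.2% with starts of coding transcripts alone, 88.2% for peaks wholly inside a gene, 89.0% when the overlap of the peaks was annotated and 96.0% at the peak centre. An interval of 5 kb around starts of the host gave 72.5% of hosts with RNAP2 at a start, in place of 66.1%. The median gap to the nearest start, 24370.5 bp, was 30990 bp with promoter intervals of 5 kb and 21984 bp with coding starts alone. With RNAP2 scores of at least 300 in both sets, the intervals of the differences from peaks without Med12 included 0 for the first intron (5.96 points) and for hosts without RNAP2 at a start (6.08 points), where 281 sites and 153 peaks remained. Beyond these counts the cause was not tested. No paired analysis was possible because there were no replicates, and for the same reason none could be left out.

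The analysis used the peak lists alone, so the input and the depth at a site were not examined here. Peaks of a transcribed gene and of an enhancer in it cannot be told apart, nor can the gene on which a site acts be named. Annotated spans that run across several genes, such as those of Gm20388 and Fgfr2, name hosts that share no exon with the site.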

Other observations

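Some sites lay at starts that GENCODE vM1 does not hold. Of the 1178 sites, 32 (2.72%, 95% Wilson interval 1.93 to 3.81%) had a RefSeq start within 1 kb, against 1.69% of intragenic distal RNAP2 peaks without Med12, 6.09% of RNAP2 peaks with Med12 outside genes and 75.2% of those at starts. Most were starts of predicted genes without a given role, such as Gm33219 at Jazf1_6, Gm51984 at Hdac9_2, Gm40208 at Nfia_2 and Gm42305 at Nfib_4, the last with scores of 412 for RNAP2 and 309 for Med12. Others were starts of coding genes, among them Tnrc6b, a gene of microRNA-mediated silencing, at Tnrc6b_1 (RNAP2 score 751, Med12 score 51.2), the splicing factor gene Hnrnpf at Hnrnpf_1 (907 and 47.6), the ubiquitin ligase gene Nedd4 at Nedd4_1 (370 and 133) and the zinc-finger gene Sall1 at Sall1_1 (299 and 58.4). Without these 32 sites all 10 results recomputed kept their direction, with 85.5% of sites in introns alone and 66.3% of hosts with RNAP2 at an own start.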
